A study of Homo sapiens with 14 samples.

Results

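Nuclear genes that encode subunits of the oxidative phosphorylation complexes were followed in cells of the human uveal melanoma line Mel202 after treatment with ICG-001. The members were taken by gene symbol, as those beginning NDUFA, NDUFB, NDUFC, NDUFS, NDUFV, UQCR, ATP5 or COX with the subunit numbers of cytochrome c oxidase, together with the SDH genes, CYC1 and CYCS. Complex I assembly factors and pseudogenes were left out. They comprised 98 of the 47323 probes of the array and 76 of the 11679 genes tested. By symbol, 34 were counted with complex I, 3 with complex II, 9 with complex III, 11 with complex IV and 18 with complex V, and 1 encodes cytochrome c. The symbols also took in ATP5IF1, the inhibitor of ATP synthase, with complex V. With complex IV they took in COX7A2L, a factor that joins complexes III and IV. SDHB had no named probe and is not analysed here, and the same holds for the muscle and testis forms of complex IV subunits.

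Mel202 was established from a recurrent, previously irradiated uveal melanoma. It carries the GNAQ changes Q209L and R210K and is wild-type for BRAF, so every group shared this genotype and the whole series rests on 1 cell line. ICG-001, a small molecule described as an inhibitor of the interaction of beta-catenin with the coactivator CBP, was given at 3 µM in DMSO, and the controls received DMSO alone, for 24 h or 48 h. DMSO was measured on 3 bead arrays at each time and ICG-001 on 4. The question asked of these genes is whether their RNA levels differed between compound and solvent, and whether the subunits of a complex moved together.

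Oxidative phosphorylation takes place at the inner mitochondrial membrane. Complexes I and II pass electrons from NADH and succinate to ubiquinone, complex III passes them to cytochrome c, and complex IV passes them to oxygen. Complexes I, III and IV pump protons, and ATP synthase, complex V, uses the returning protons to make ATP. All these complexes except complex II combine subunits encoded in the nucleus with subunits encoded in mitochondrial DNA, and many nuclear subunit genes have binding sites for NRF1, for the ETS factor GABP or for YY1 in their promoters. No mitochondrially encoded subunit was among the genes tested.

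The promoters of the members that passed the test at both times are shown because these genes carry the results below. The sequences are from RefSeq, build GRCh38.p14, and each is the 250 bases before the annotated start of the gene, read 5′ to 3′ on the strand of the gene. Capitals mark matches, on either strand and wholly within the print, to the 5 short motifs searched.
NDUFA7 promoter, chr19:8321376-8321625, minus strand: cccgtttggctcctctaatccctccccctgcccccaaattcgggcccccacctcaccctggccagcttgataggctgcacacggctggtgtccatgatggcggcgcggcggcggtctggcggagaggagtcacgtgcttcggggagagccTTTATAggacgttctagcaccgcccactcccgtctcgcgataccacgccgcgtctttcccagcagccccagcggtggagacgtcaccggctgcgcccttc
NDUFV2 promoter, chr18:9102449-9102698, plus strand: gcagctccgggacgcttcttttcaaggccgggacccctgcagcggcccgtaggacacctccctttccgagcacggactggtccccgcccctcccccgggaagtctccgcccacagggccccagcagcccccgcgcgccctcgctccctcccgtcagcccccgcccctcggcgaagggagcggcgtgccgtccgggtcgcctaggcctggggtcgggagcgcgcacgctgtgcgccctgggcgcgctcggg
UQCR10 promoter, chr22:29767119-29767368, plus strand: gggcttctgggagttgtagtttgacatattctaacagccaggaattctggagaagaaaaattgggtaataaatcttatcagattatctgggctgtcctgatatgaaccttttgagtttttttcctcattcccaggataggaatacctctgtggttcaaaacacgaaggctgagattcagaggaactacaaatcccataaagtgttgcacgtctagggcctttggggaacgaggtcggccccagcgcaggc
ATP5MG promoter, chr11:118401356-118401605, plus strand: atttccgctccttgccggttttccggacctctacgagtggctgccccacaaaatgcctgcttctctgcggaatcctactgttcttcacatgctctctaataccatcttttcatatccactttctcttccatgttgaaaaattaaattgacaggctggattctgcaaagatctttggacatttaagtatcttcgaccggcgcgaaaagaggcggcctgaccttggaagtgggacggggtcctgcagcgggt
ATP5MJ promoter, chr14:103921530-103921779, minus strand: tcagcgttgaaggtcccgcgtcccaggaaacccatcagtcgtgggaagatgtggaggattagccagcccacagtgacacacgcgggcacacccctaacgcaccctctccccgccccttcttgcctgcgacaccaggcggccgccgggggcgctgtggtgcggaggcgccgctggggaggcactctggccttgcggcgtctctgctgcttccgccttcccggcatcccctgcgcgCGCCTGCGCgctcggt
Of the 76 members, 63 had an entry in the promoter table. The unmatched members include ATP5MC3, COX6C and UQCRB. The search window ran from 250 bases before to 50 bases after the start. Some genes had several windows (76 for the 63 members and 35116 for all 27305 genes in the table), and a match in any of them counted. The NRF1 core GCGCANGCG was present for 20 of the 63 members (31.7%) and for 9.02% of all genes. For the ETS core CCGGAAG the shares were 31.7% of members and 12.2% of all genes, and for the YY1 core AAGATGGC 17.5% and 3.52%. The ATF4 element TGATGNAA was present for 1 member (1.59%, against 4.46% of all genes) and TATAAA for 6 (9.52%, against 14.0%). In the sequences printed, TATAAA was matched in NDUFA7 and the NRF1 core in ATP5MJ, both on the opposite strand. An NRF1 core in UQCR10 lay across the start, with its first 8 bases at the end of the printed sequence and 1 base after it. An ETS core in ATP5MG and a YY1 core in NDUFA7 lay within the 50 bases after the start, which are not printed, and NDUFV2 held no match. Among the members with an entry that passed the test in the mean of both times, the NRF1 core was present in 8 of the 20 that fell and 3 of the 8 that rose. The ETS core was present in 6 and 1 of them, and the YY1 core in 5 and 3. These matches describe letters in a window and do not show binding.

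Signals are given as log2 intensity after background correction and quantile normalisation, so each change is relative to the other genes on the array. Where 2 arrays carry the same title number with the endings a and b, they were averaged. Each time then had 2 DMSO replicates (n = 2) and 3 ICG-001 replicates (n = 3). A gene is said to have risen or fallen only where limma's two-sided p, adjusted by Benjamini-Hochberg over all 11679 genes, was below 0.05. Nothing in the labels says that the replicates came from separate cultures, so these p-values measure only the spread between the samples, which may be technical. Fewer cells of a type and less RNA per cell cannot be told apart in RNA pooled from a culture.

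The median signal per array was 113.1 to 139.1, and 28.8% to 36.7% of the probes had a detection p-value below 0.01. A subset of 4 arrays, those titled with the letter b, of which each group holds 1, stood apart, with 13608 to 14060 such probes, against 15294 to 17374 on the other 10. The melanocyte genes PMEL, MLANA, TYR, TYRP1, SOX10 and MITF were detected on all 14 arrays. Their median log2 change with ICG-001 was -0.28 at 24 h and -0.23 at 48 h, with 5 of the 6 below 0 at each time. SOX10 fell at both times (-0.57 and -0.57, limma, adjusted p = 0.022 and 0.019), and PMEL and TYR fell in the mean of both times. Of the markers of other cell types with a named probe, DCN, CD14 and TNP1 were detected at that level on 0 arrays and COL1A1 on 1, while LUM and EMCN were detected on 14 and CDH1 on 13. LUM changed by -1.83 at 24 h and -2.22 at 48 h and CDH1 by -0.78 and -0.74 on the log2 scale with ICG-001 (limma, adjusted p = 8.49e-05, 1.57e-05, 0.032 and 0.039). The part of these markers in the results was not tested.

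On at least 3 arrays, all 98 member probes were above background (a detection p-value below 0.05), and 91 had a detection p-value below 0.01 on all 14. Among the probes that stand for a gene, the exceptions were those of NDUFA5, NDUFB1, NDUFC2, NDUFS1 and NDUFV3, all of complex I. The dimmest were NDUFA5, above background on 10 arrays, and NDUFC2, on 8. Of all 47323 probes, 22158 were above background on at least 3 arrays. Of the 16545 probes with 1 gene symbol, 15665 were, so the count of 98 is not particular to the members.

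After 24 h of ICG-001, 3 of the 76 members rose, 12 fell and 61 did not pass the test. The members that fell were ATP5MC3, ATP5MG, ATP5MJ, COX6C, COX7C, NDUFB1, NDUFB6, NDUFB7, NDUFV2, SDHD, UQCR10 and UQCRB, and those that rose were NDUFA5, NDUFA7 and NDUFS1. Members called lower made up 15.8% of the set, against 10.5% of all genes tested, and members called higher 3.95%, against 13.7%. In either direction the share was 19.7%, and it was 24.2% over all genes. The median log2 change of the members was -0.15, beside 0.020 over all genes, and 55 of the 76 (72.4%) had a log2 change below 0, beside 48.0% of all genes. The replicates of ICG-001 all lay below those of DMSO for 38 of the 76 members (23.5% of all genes) and all above them for 13 (17.1%; 27.4% of all genes).

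At 48 h, 4 members rose and 12 fell. The members that fell were ATP5F1A, ATP5F1D, ATP5MC3, ATP5MG, ATP5MJ, ATP5PF, COX6C, NDUFA1, NDUFS5, NDUFV2, UQCR10 and UQCRB, and NDUFA6, NDUFA7, NDUFC2 and NDUFS7 rose, NDUFC2 by a probe not above background with DMSO. The shares were 15.8% lower (11.7% of all genes) and 5.26% higher (14% of all genes), or 21.1% in either direction (25.8% of all genes). With each array scaled to its 75th percentile in place of quantile normalisation the split was 4 higher and 7 lower. In that setting 26.3% of all genes were called in either direction. The median log2 change was -0.13, beside 0.015 over all genes, and 50 members (65.8%) were below 0. Replicates did not overlap for 35 members with ICG-001 lower (46.1%; 26.3% of all genes) and 13 with it higher (17.1%; 28.1% of all genes).

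Over the mean of both times, in which 41.7% of all genes were called, 9 members rose and 25 fell (44.7%). Members called lower were 32.9% of the set (19.1% of all genes) and members called higher 11.8% (22.6% of all genes). All 9 that rose belong to complex I, namely NDUFA5, NDUFA6, NDUFA7, NDUFA8, NDUFB10, NDUFC2, NDUFS1, NDUFS7 and NDUFS8. NDUFC2 is counted among them as a description, since its probe passed the detection filter only through the ICG-001 arrays. Those that fell came from every complex, with 10 from complex I, 1 from complex II, 3 each from complexes III and IV, and 8 from complex V.

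**Figure D1:**
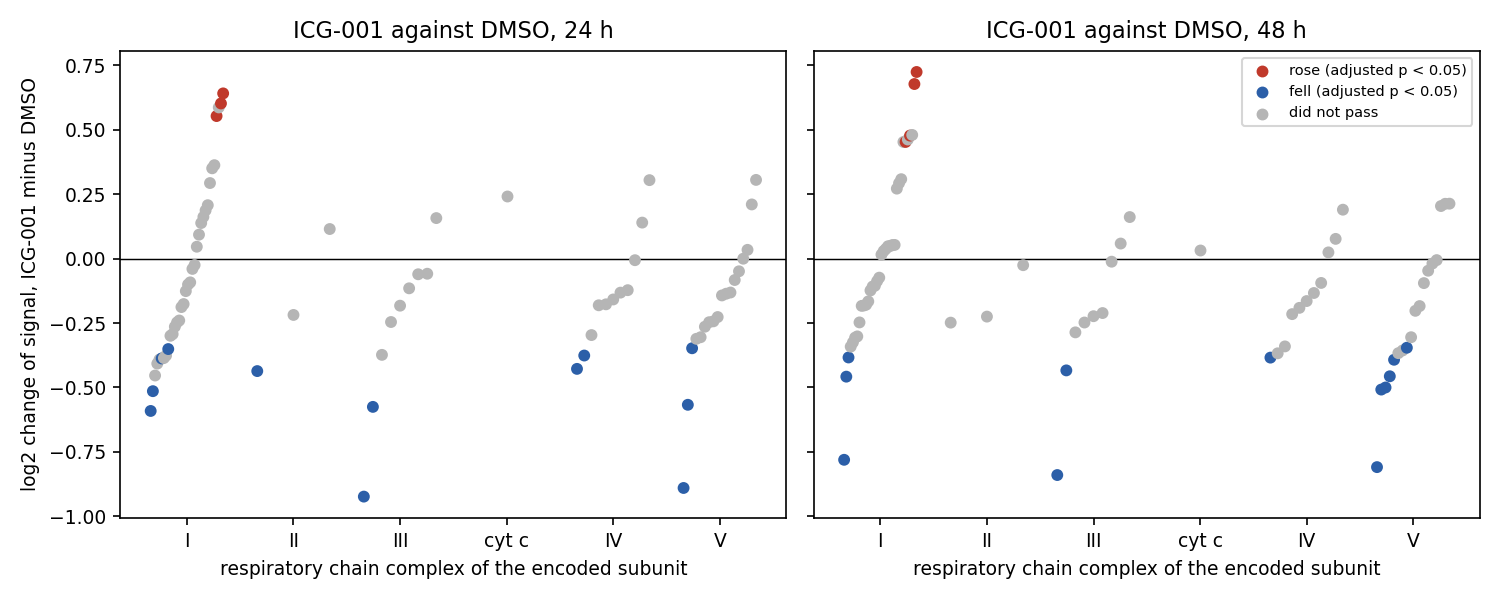
Log2 change of signal, ICG-001 minus DMSO, for each of the 76 genes (points, ordered by size within a complex) at 24 h and 48 h. Blue points fell and red points rose (limma, adjusted p below 0.05), and grey points did not pass. Red points occur only in complex I, with 3 at 24 h and 4 at 48 h, and blue points reach -0.92 (UQCR10) at 24 h. The red point of NDUFC2 at 48 h is given as a description, its probe not being above background with DMSO.

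The 2 times share no samples, and the members' changes were alike in them. Across the 76 genes the log2 changes at 24 h and 48 h had a Pearson correlation of 0.865 and a Spearman correlation of 0.837, given as a description since genes are not independent replicates. The sign was the same at both times for 69 members, of which 49 were lower and 20 higher with ICG-001. Of the 23 members called at either time, 8 were called at both. These were ATP5MC3, ATP5MG, ATP5MJ, COX6C, NDUFV2, UQCR10 and UQCRB, which fell, and NDUFA7, which rose. The matching counts and correlations over all genes are not given here, so this likeness is not read as particular to the members. No member passed the test of the difference between the 2 effects (0 of 11679 genes, limma; at an unadjusted p below 0.05 there were 1 member and 660 genes, or 5.65%). The count of members called for this difference was also 0 under each of the 15 alternative settings that kept every replicate. Without the compound, no member passed the comparison of DMSO at 48 h with DMSO at 24 h, in which 4 genes (0.0342%) were called, and 3 members and 958 genes had an unadjusted p below 0.05. The members' median change in DMSO over that time was -0.082, beside -0.0011 over all genes. With 75th percentile scaling these medians were -0.22 and -0.056.

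**Figure D2:**
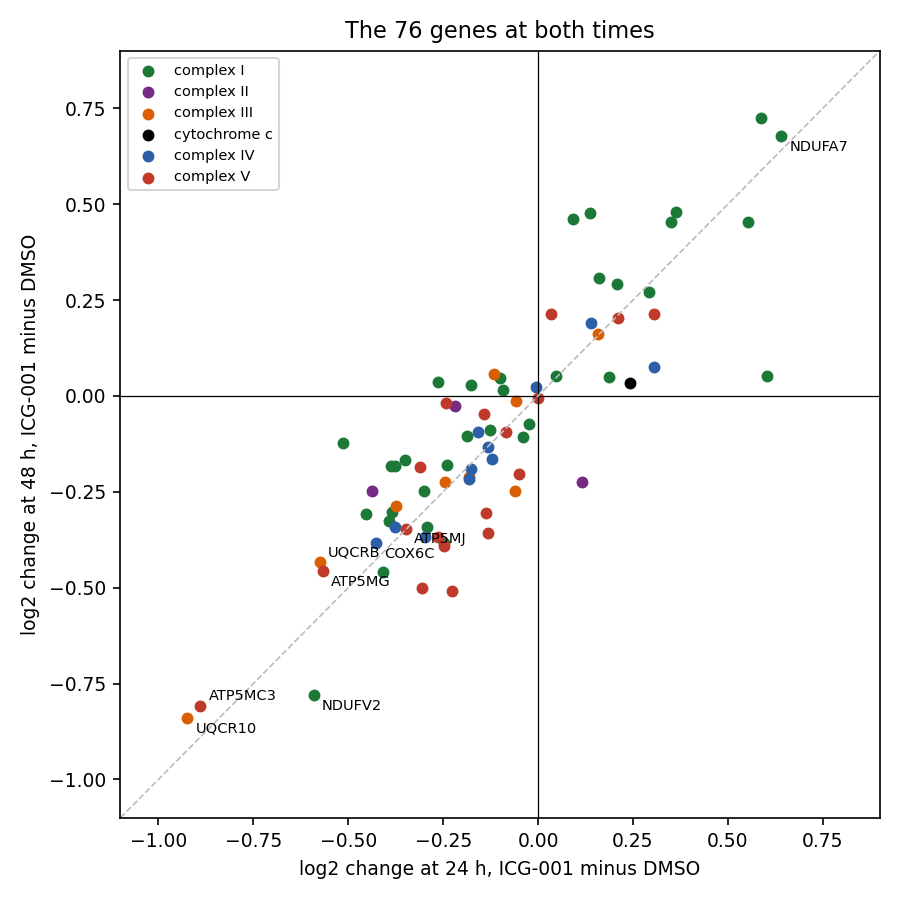
Log2 change of each of the 76 genes at 24 h (horizontal axis) and at 48 h (vertical axis), ICG-001 minus DMSO, coloured by complex, with the 8 genes called at both times named and the line of equal change dashed. The points follow the dashed line (Pearson correlation 0.865), ATP5MC3, UQCR10 and NDUFV2 stand at its lower end and NDUFA7 at its upper end.

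Complex I, the NADH dehydrogenase, is a matrix arm that takes electrons from NADH joined to a membrane arm that pumps protons, with core subunits shared with bacteria and accessory subunits around them. Its members changed in both directions. Of 34, 3 were higher and 4 lower at 24 h, or 8.82% and 11.8% (13.7% and 10.5% of all genes). At 48 h, 4 were higher and 3 lower, or 11.8% and 8.82% (14% and 11.7% of all genes). In the mean of both times 9 were higher and 10 lower, or 26.5% and 29.4% (22.6% and 19.1% of all genes). In that mean, 6 of 14 matrix arm members rose (42.9%) and 3 fell (21.4%). Of 19 membrane arm members, 3 rose (15.8%) and 7 fell (36.8%). NDUFC2, among those 3, is counted as a description, its probe having passed the detection filter only through the ICG-001 arrays. The matrix arm had a median of 0.12 and the membrane arm of -0.15. Of the 6 nuclear core subunits measured, NDUFS1, NDUFS7 and NDUFS8 rose in the mean, NDUFV2 fell, and NDUFV1 (0.28 ± 0.13 SE) and NDUFS3 (-0.038 ± 0.077) did not pass. The difference between the arms was not tested.

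NDUFV2 encodes a core subunit with an iron-sulfur cluster in the NADH-oxidising tip of the matrix arm. Its log2 signal was 11.64 and 11.77 in the DMSO replicates and 11.04, 11.16 and 11.14 in the ICG-001 replicates at 24 h. At 48 h it was 11.79 and 11.61 with DMSO and 10.83, 10.95 and 10.97 with ICG-001. Every ICG-001 replicate lay well below every DMSO replicate at both times. NDUFV2 fell 1.51-fold at 24 h (log2 change -0.59 ± 0.12 SE, limma, adjusted p = 0.0059) and 1.72-fold at 48 h (-0.78 ± 0.12 SE, adjusted p = 0.0012).

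NDUFA7, an accessory subunit of the matrix arm, went the other way. It read 9.26 and 9.37 with DMSO against 9.90, 9.89 and 10.07 with ICG-001 at 24 h. The values at 48 h were 9.11 and 9.14 against 9.86, 9.82 and 9.73. The groups were apart at both times. NDUFA7 rose 1.56-fold at 24 h (0.64 ± 0.12 SE, limma, adjusted p = 0.0035) and 1.60-fold at 48 h (0.68 ± 0.12 SE, adjusted p = 0.0022). NDUFA7 and NDUFV2 have 1 probe each.

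The other core subunits of the matrix arm that passed at one of the times moved upward. NDUFS7 carries the last iron-sulfur cluster before ubiquinone and NDUFS1 is the largest subunit of the complex. NDUFS7 read 10.04 and 10.06 with DMSO against 10.37, 10.55 and 10.27 with ICG-001 at 24 h, and 10.02 and 10.01 against 10.53, 10.50 and 10.36 at 48 h. Its replicates did not overlap at either time, with a rise of 1.37-fold at 48 h (0.45 ± 0.12 SE, limma, adjusted p = 0.020) and a log2 change of 0.35 ± 0.12 at 24 h that did not pass (adjusted p = 0.059). NDUFS1 read 6.06 and 5.75 against 6.42, 6.28 and 6.66 at 24 h, and 5.78 and 6.33 against 6.41, 6.55 and 6.57 at 48 h. It rose 1.47-fold at 24 h (0.55 ± 0.18 SE, adjusted p = 0.045), and the 0.45 ± 0.18 of 48 h did not pass (adjusted p = 0.086), with one DMSO replicate close under the ICG-001 values.

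Among accessory subunits, NDUFA5 and NDUFA6 of the matrix arm and NDUFC2 of the membrane arm passed at a single time. NDUFA5 read 4.74 and 5.01 with DMSO and 5.27, 5.56 and 5.60 with ICG-001 at 24 h, a rise of 1.52-fold (0.60 ± 0.16 SE, limma, adjusted p = 0.022) in which 1 of 3 DMSO arrays and 3 of 4 ICG-001 arrays were above background. At 48 h its DMSO replicates, 5.20 and 5.61, spanned the ICG-001 values of 5.53, 5.32 and 5.51. These signals were near background, and without the first DMSO replicate of 48 h the 48 h change was -0.15.
NDUFA6, which overlapped at 24 h (8.79 and 9.13 with DMSO against 9.00, 9.12 and 9.18), read 8.63 and 8.43 against 9.03, 8.99 and 9.00 at 48 h. It rose 1.39-fold there (0.48 ± 0.13 SE, limma, adjusted p = 0.023). The NDUFC2 probe was above background on 0 of 3 DMSO arrays and 3 of 4 ICG-001 arrays at 48 h, so the signals of 4.73 and 4.81 against 5.86, 5.25 and 5.36 give a difference of at least 1.33-fold. At 24 h NDUFC2 read 5.29 and 4.84 against 5.42, 5.54 and 6.00 and did not pass. With 1 of 6 DMSO arrays and 7 of 8 ICG-001 arrays above background, its probe passed the detection filter only through the group where it is high, so its place among the members that rose is given as a description and its p-values are left out.

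The other members of the membrane arm that passed at a single time were lower. NDUFB7, a subunit on the intermembrane space side, read 11.46 and 11.34 with DMSO against 11.04, 11.07 and 10.93 with ICG-001 at 24 h, apart by more than the spread of either group. It fell 1.31-fold (-0.39 ± 0.11 SE, limma, adjusted p = 0.029), and at 48 h 11.20 and 11.14 against 11.02, 10.97 and 10.97 did not pass (-0.18 ± 0.11, adjusted p = 0.26). NDUFB1 (-0.51 ± 0.17, adjusted p = 0.046) and NDUFB6 (-0.35 ± 0.12, adjusted p = 0.048) fell at 24 h by margins close to the threshold. The other NDUFB6 probe, of the same transcript, changed by 0.055 at 24 h and 0.18 at 48 h and did not pass. NDUFA1 (-0.46 ± 0.15, adjusted p = 0.042) and NDUFS5 (-0.38 ± 0.12, adjusted p = 0.039) fell at 48 h.

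Complex II, the succinate dehydrogenase, is also an enzyme of the citrate cycle. SDHD, 1 of its membrane anchors, read 9.37 and 9.62 with DMSO against 9.14, 8.95 and 9.09 with ICG-001 at 24 h, and 9.45 and 9.18 against 8.92, 9.08 and 9.20 at 48 h. It fell 1.35-fold at 24 h (-0.44 ± 0.14 SE, limma, adjusted p = 0.047), and at 48 h the replicates overlapped (-0.25 ± 0.14, adjusted p = 0.23). SDHC, the other anchor, read 10.02 and 10.41 against 10.14, 10.00 and 9.85 at 24 h, and 10.06 and 9.89 against 9.94, 9.87 and 10.04 at 48 h. These groups overlapped at both times, and neither change passed (-0.22 ± 0.15 and -0.026 ± 0.15).

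SDHA, the flavoprotein that oxidises succinate, gave different answers by probe. The brightest probe read 9.55 and 10.02 with DMSO against 9.84, 9.99 and 9.87 with ICG-001 at 24 h, and 10.04 and 9.87 against 9.85, 9.71 and 9.64 at 48 h, with log2 changes of 0.11 ± 0.15 and -0.23 ± 0.15 SE that did not pass. The other probe, annotated to the same RefSeq transcript, read 9.70 and 9.50 against 9.17, 8.85 and 8.81 at 24 h, and 9.68 and 9.18 against 8.58, 8.52 and 8.94 at 48 h. Its ICG-001 replicates were all below its DMSO replicates at both times, with log2 changes of -0.66 and -0.75 (limma over all probes, adjusted p = 0.040 and 0.022). The direction for SDHA at 24 h thus depends on the probe.

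Complex III, the bc1 complex, had 2 members that fell at each time (22.2%) and none that rose. Of all genes, 10.5% and 11.7% were called lower and 24.2% and 25.8% in either direction. A mean log2 change below 0 was found for 8 of the 9 members of complex III (88.9%, against 48.8% of all genes). UQCR10 encodes a small subunit next to cytochrome c1. It read 9.83 and 9.99 with DMSO against 9.19, 8.96 and 8.81 with ICG-001 at 24 h, and 9.71 and 9.45 against 8.50, 8.70 and 9.02 at 48 h. The groups were apart at both times, and UQCR10 fell 1.90-fold (-0.92 ± 0.17 SE, limma, adjusted p = 0.0042) and 1.79-fold (-0.84 ± 0.17 SE, adjusted p = 0.0058). The probe that stands for the gene is annotated to another transcript variant than the other 2 probes, which changed by 0.31 and -0.35 at 24 h and 0.26 and -0.42 at 48 h and did not pass at either time. With all probes averaged, UQCR10 did not pass (-0.32 and -0.33, adjusted p = 0.059 and 0.051).

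UQCRB encodes a subunit near the ubiquinone site of complex III. Its replicates were 11.79 and 12.02 with DMSO against 11.37, 11.25 and 11.36 with ICG-001 at 24 h, and 11.87 and 11.85 against 11.41, 11.55 and 11.32 at 48 h, with no overlap. UQCRB fell 1.49-fold (-0.58 ± 0.12 SE, limma, adjusted p = 0.0080) and 1.35-fold (-0.43 ± 0.12 SE, adjusted p = 0.026). Its other probe, of the same transcript, changed by 0.12 and 0.14 and did not pass, and the mean of the probes changed by -0.23 and -0.15 (adjusted p = 0.20 and 0.40). UQCRC1, a large core protein of the complex, fell in the mean of both times (-0.33 ± 0.09 SE, adjusted p = 0.015). UQCRH and UQCRHL are close copies, so their probes may not tell them apart, and neither passed in any comparison.

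The electron carriers of this stretch of the chain did not pass. CYC1, cytochrome c1, read 12.26 and 12.21 with DMSO against 12.34, 12.42 and 12.41 with ICG-001 at 24 h, and 12.25 and 12.11 against 12.46, 12.23 and 12.34 at 48 h (log2 changes 0.16 ± 0.12 SE at each time). CYCS, cytochrome c, read 7.24 and 7.14 against 7.28, 7.46 and 7.57, and 7.18 and 7.25 against 7.38, 7.18 and 7.20 (0.24 ± 0.13 and 0.034 ± 0.13). ICG-001 replicates lay above DMSO replicates at 24 h for both genes and overlapped with them at 48 h.

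Complex IV, cytochrome c oxidase, has its catalytic core encoded in mitochondrial DNA and small nuclear subunits around it. Of its 11 nuclear members, 2 fell at 24 h (18.2%), 1 fell at 48 h (9.09%) and 3 fell in the mean (27.3%), with none higher. The shares of all genes called lower were 10.5%, 11.7% and 19.1%, and in either direction 24.2%, 25.8% and 41.7%. COX6C read 13.96 and 13.84 with DMSO against 13.48, 13.51 and 13.44 with ICG-001 at 24 h, and 13.77 and 13.76 against 13.36, 13.29 and 13.49 at 48 h. All ICG-001 replicates were below all DMSO replicates, a fall of 1.35-fold (-0.43 ± 0.11 SE, limma, adjusted p = 0.020) and 1.31-fold (-0.38 ± 0.11 SE, adjusted p = 0.030). COX7C read 14.04 and 14.27 against 13.73, 13.71 and 13.89, and 14.18 and 14.03 against 13.81, 13.69 and 13.79. It fell 1.30-fold at 24 h, at the edge of the threshold (-0.38 ± 0.13, adjusted p = 0.049), and did not pass at 48 h (-0.34 ± 0.13, adjusted p = 0.067).

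The remaining complex IV members with tissue-specific relatives were measured through their general forms. COX7B read 12.26 and 12.40 with DMSO against 11.99, 12.17 and 11.94 with ICG-001 at 24 h and 12.53 and 12.30 against 11.98, 12.12 and 12.05 at 48 h. It passed only in the mean (-0.33 ± 0.09 SE, limma, adjusted p = 0.013). COX4I1 (13.32 and 13.35 against 13.16, 13.17 and 13.15 at 24 h) and COX8A (13.55 and 13.50 against 13.27, 13.43 and 13.33) had ICG-001 replicates below DMSO replicates at both times, with log2 changes of -0.18 to -0.22 that did not pass. At 48 h COX4I1 read 13.33 and 13.41 against 13.29, 13.16 and 13.07, and COX8A read 13.44 and 13.54 against 13.30, 13.34 and 13.17. COX6A1 and COX6B1 changed by -0.13 and -0.16 at 24 h and by -0.13 and -0.094 at 48 h and did not pass. COX6A1 ranged from 11.67 to 11.93 and COX6B1 from 12.66 to 12.97 over all 10 replicates.

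COX7A2 is a subunit of complex IV, and the related COX7A2L is a factor that joins complexes III and IV into supercomplexes. COX7A2 read 13.80 and 13.73 with DMSO against 13.51, 13.68 and 13.74 with ICG-001 at 24 h, and 13.78 and 13.86 against 13.72, 13.75 and 13.49 at 48 h. COX7A2L read 11.14 and 11.22 against 11.54, 11.39 and 11.51, and 11.36 and 11.29 against 11.43, 11.29 and 11.48. The change of COX7A2 minus that of COX7A2L was -0.33 on the log2 scale over both times (exact permutation within each time, two-sided, 100 arrangements, p = 0.03, adjusted over 5 pairs 0.05). COXFA4, formerly named NDUFA4 and now placed with complex IV, is not a member by its symbol. It changed by -0.19 ± 0.11 SE and -0.28 ± 0.11, did not pass at either time and fell in the mean (-0.24, limma, adjusted p = 0.035). COXFA4L2, which was above background on 5 of 14 arrays and on none of the DMSO arrays at 48 h, is given no fold. The comparison of COXFA4 with COXFA4L2, 1 of the 5 pairs, is therefore left out.

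Complex V, ATP synthase, had 3 members that fell at 24 h, 6 at 48 h and 8 of 18 in the mean, with none higher. These were 16.7%, 33.3% and 44.4% of its members. Of all genes, 10.5%, 11.7% and 19.1% were called lower and 24.2%, 25.8% and 41.7% in either direction. Its median log2 change was -0.18 at 24 h and -0.25 at 48 h. By part of the enzyme, 3 of 5 members of the F1 head (60%) fell in the mean. So did 2 of 4 of the peripheral stalk (50%) and 3 of 8 of the membrane part, Fo (37.5%), beside 19.1% of all genes.

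**Figure D3:**
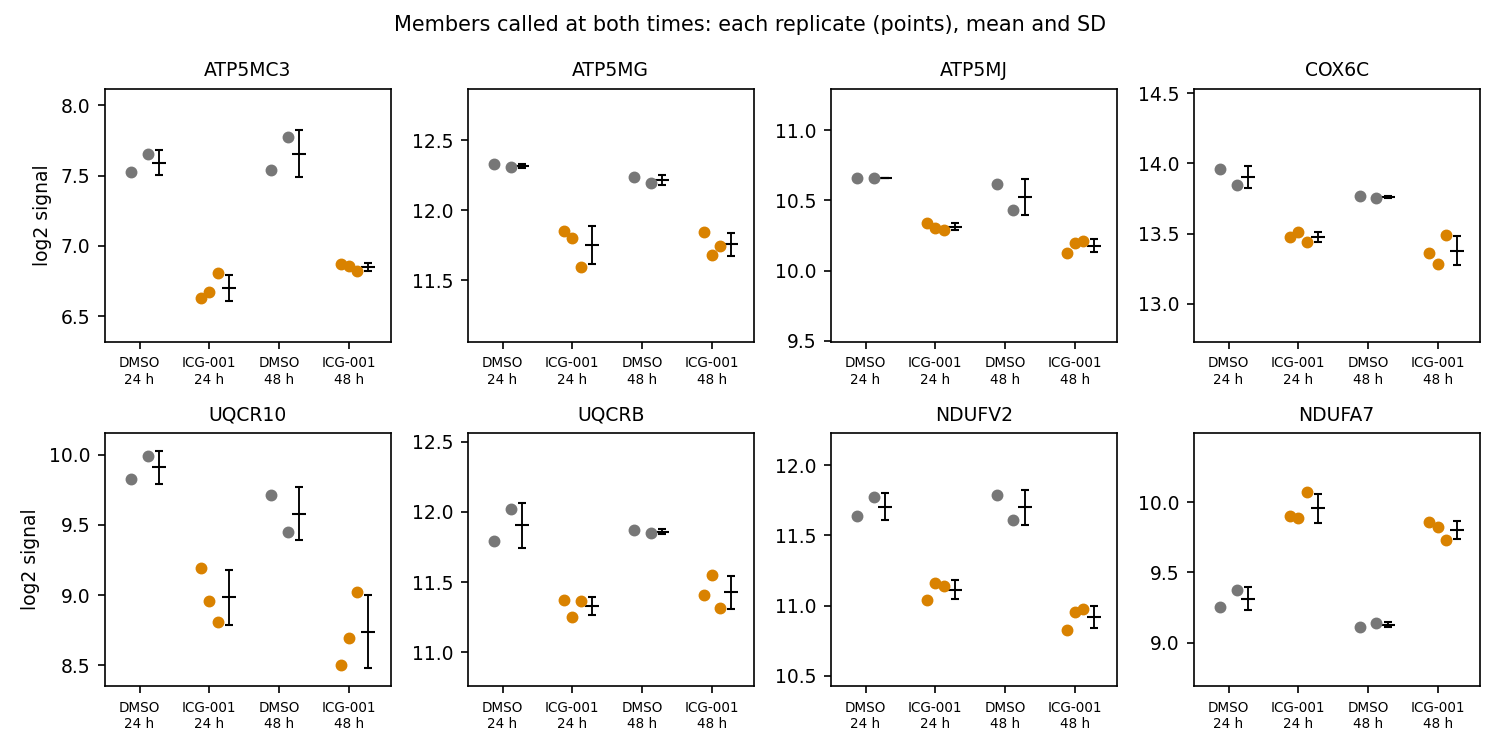
Log2 signal of the 8 members called at both times in each replicate (points, DMSO grey and ICG-001 orange), with the mean and the SD beside them, each panel spanning the same height. In every panel the ICG-001 replicates lie on 1 side of the DMSO replicates of the same time, above them for NDUFA7 and below them for the other 7 genes.

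ATP5MC3 had the smallest adjusted p of the members at both times. It is 1 of 3 genes, with ATP5MC1 and ATP5MC2, that encode the same mature subunit c, of which the proton-driven ring is built, behind different import sequences. ATP5MC3 read 7.53 and 7.66 with DMSO against 6.63, 6.67 and 6.81 with ICG-001 at 24 h. The values at 48 h were 7.54 and 7.78 against 6.87, 6.85 and 6.82. The gap between the groups was several times the spread within them. ATP5MC3 fell 1.85-fold at 24 h (-0.89 ± 0.12 SE, limma, adjusted p = 0.00083) and 1.75-fold at 48 h (-0.81 ± 0.12 SE, adjusted p = 0.0011). In the authors' processed values the changes were -0.40 and -0.38, past the threshold at both times.

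The other 2 genes of subunit c did not fall. ATP5MC1 read 10.73 and 11.20 with DMSO against 11.29, 11.32 and 11.20 with ICG-001 at 24 h, and 10.87 and 10.96 against 11.10, 11.16 and 11.12 at 48 h. ATP5MC2 read 12.56 and 12.82 against 12.92, 12.82 and 12.97, and 12.52 and 12.70 against 12.83, 12.94 and 12.68. Their log2 changes were 0.31 ± 0.14 and 0.21 ± 0.14 SE for ATP5MC1 and 0.21 ± 0.13 and 0.20 ± 0.13 for ATP5MC2, none of which passed. The change of ATP5MC3 over both times was lower than that of ATP5MC1 by 1.11 and than that of ATP5MC2 by 1.06 on the log2 scale (exact permutation within each time, two-sided, p = 0.01 for each, the smallest that 100 arrangements can give, adjusted over 5 pairs 0.025). ATP5MC1 and ATP5MC2 differed by 0.052 (exact permutation p = 0.48). A second ATP5MC1 probe, of another transcript variant, changed by -0.26 at 24 h and -0.13 at 48 h and did not pass.

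**Figure D4:**
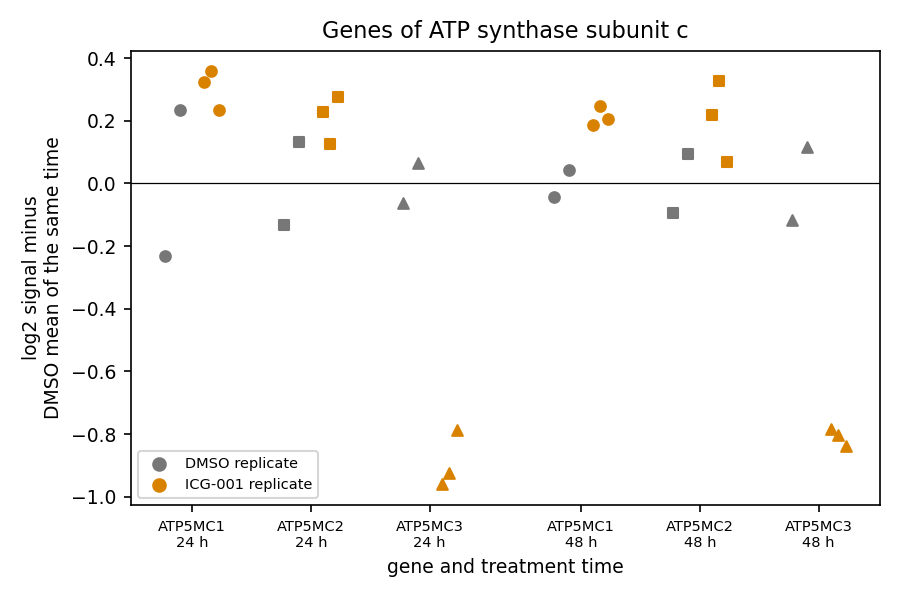
Log2 signal of the 3 genes of ATP synthase subunit c in each replicate, minus the DMSO mean of the same time, for DMSO (grey) and ICG-001 (orange) at 24 h and 48 h. The ICG-001 points of ATP5MC3 lie far below 0 at both times (means -0.89 and -0.81), while those of ATP5MC1 and ATP5MC2 lie above 0.

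ATP5MG and ATP5MJ encode small subunits of the membrane part. ATP5MG read 12.33 and 12.31 with DMSO against 11.85, 11.80 and 11.60 with ICG-001 at 24 h, and 12.24 and 12.19 against 11.85, 11.68 and 11.74 at 48 h. Its groups were apart at both times, with falls of 1.48-fold (-0.57 ± 0.12 SE, limma, adjusted p = 0.0077) and 1.37-fold (-0.46 ± 0.12 SE, adjusted p = 0.019). ATP5MJ read 10.66 and 10.66 against 10.34, 10.31 and 10.29, and 10.61 and 10.43 against 10.12, 10.19 and 10.21. It fell 1.27-fold at each time (-0.35 ± 0.11 SE, adjusted p = 0.043 and 0.042), and lost the call when any 1 of the replicates of either group of the same time was left out.

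A further 3 members passed at 48 h and not at 24 h. They were ATP5F1A, the alpha subunit of the F1 head, ATP5F1D, the delta subunit of the central stalk, and ATP5PF of the peripheral stalk. ATP5F1A read 13.58 and 13.59 with DMSO against 13.33, 13.22 and 13.29 with ICG-001 at 24 h, and 13.72 and 13.79 against 13.14, 13.42 and 13.20 at 48 h, a fall of 1.41-fold at 48 h (-0.50 ± 0.12 SE, limma, adjusted p = 0.012). ATP5F1D read 11.07 and 11.14 against 10.87, 10.91 and 10.86, and 11.08 and 10.93 against 10.63, 10.17 and 10.69, a fall of 1.42-fold at 48 h (-0.51 ± 0.15, adjusted p = 0.033). ATP5PF read 13.43 and 13.22 against 13.02, 13.12 and 13.10, and 13.32 and 13.30 against 12.96, 12.77 and 13.02, a fall of 1.31-fold at 48 h (-0.39 ± 0.12, adjusted p = 0.040). The ICG-001 replicates of all 3 genes were below the DMSO replicates at 24 h as well, where the changes of -0.31, -0.23 and -0.25 did not pass. The other probe of ATP5F1D changed by 0.026 at 48 h. ATP5F1B, the catalytic beta subunit, changed by -0.083 and -0.095 and did not pass. ATP5F1E, the epsilon subunit, changed by -0.00039 and -0.0059.

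Without the 4 arrays ending in b, 11 members were called at 24 h (3 higher, 8 lower), 11 at 48 h (4 higher, 7 lower) and 32 in the mean, where 22.6%, 25.0% and 40.7% of all genes were called. Of the 8 members called at both times, ATP5MC3, ATP5MG, NDUFV2, UQCR10 and NDUFA7 passed at both times without them. The log2 changes of the 8 genes were then -0.98 to 0.60 at 24 h and -0.89 to 0.65 at 48 h. ATP5MJ lost its call at both times (adjusted p = 0.070 and 0.051), and COX6C and UQCRB lost theirs at 48 h (0.082 and 0.053). With 1 replicate left out in turn, ATP5MC3, NDUFV2 and NDUFA7 kept their calls at both times. UQCR10 lost its 48 h call without DMSO 48 h replicate 1 (-0.71, limma, adjusted p = 0.064), and UQCRB its 24 h call without DMSO 24 h replicate 2 (-0.46, adjusted p = 0.066). At 48 h the calls of UQCRB, COX6C and ATP5MG were lost without either DMSO replicate of that time (adjusted p = 0.074 to 0.13) and without ICG-001 48 h replicate 1 or 3, 1 or 2, and 2, respectively (0.055 to 0.085). COX6C at 24 h was lost without DMSO replicate 1 or ICG-001 replicate 1 or 3 of that time (0.052 to 0.087). NDUFC2 is left aside here, its probe having passed the detection filter only through the ICG-001 arrays. For each of the other members called at a single time whose replicate values are given above, leaving out at least 1 replicate ended the call. The direction was kept.

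More than 1 probe was measured for 20 members. NDUFV3, an accessory subunit of the matrix arm, had probes whose changes had opposite signs, each annotated to its own transcript variant. The brightest probe read 6.64 and 7.01 with DMSO against 6.16, 6.63 and 6.32 with ICG-001 at 24 h, and 6.67 and 6.39 against 6.16, 6.19 and 6.34 at 48 h, a fall in the mean of both times (-0.38 ± 0.12 SE, limma over all probes, adjusted p = 0.037). The other probe read 5.01 and 4.91 against 5.80, 5.81 and 5.67, and 4.88 and 4.69 against 5.02, 5.52 and 5.39. It was above background on 0 of 6 DMSO arrays and on 7 of 8 ICG-001 arrays, a difference of at least 1.54-fold at 24 h and at least 1.17-fold at 48 h. This probe passed the detection filter only through the ICG-001 arrays, so its call is given as a description. Further probes that fell at 48 h while the probe standing for the gene did not pass were those of ATP5IF1, the inhibitor of ATP synthase (-0.57), ATP5PB (-0.52) and NDUFB3 (-0.41).

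**Figure D5:**
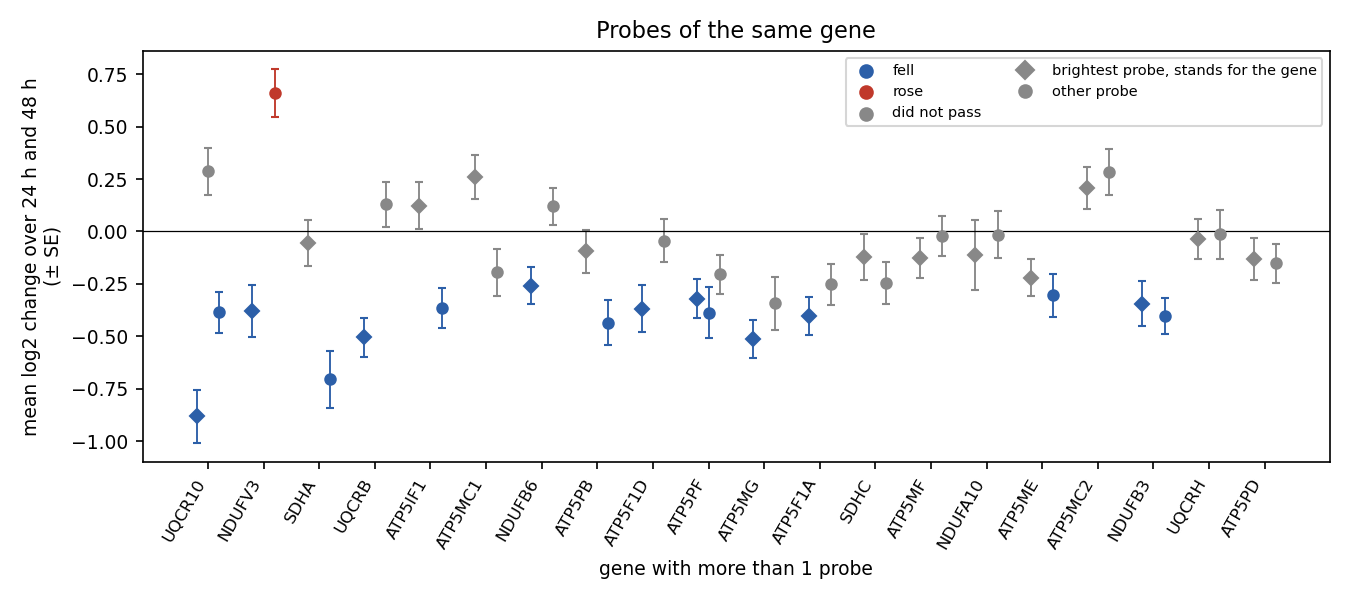
Mean log2 change over 24 h and 48 h (± SE of the fit) of every probe of the 20 members with more than 1 probe, ordered by the gap between the probes. Diamonds are the brightest probe, which stands for the gene. Colours mark probes that fell (blue) or rose (red) with limma's adjusted p below 0.05 over all probes. The gap is widest for UQCR10 and NDUFV3, and the other NDUFV3 probe alone is red. That red point is given as a description, its probe having passed the detection filter only through the ICG-001 arrays.

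Genes that serve the same complexes were read from further lists. Of 52 assembly factors, 3 rose and 3 fell at 24 h and 6 rose and 4 fell at 48 h (11.5% and 19.2%, against 24.2% and 25.8% of all genes). COX15, which makes the heme A of complex IV, rose by 0.71 ± 0.12 SE and 1.05 ± 0.12 on the log2 scale (limma, adjusted p = 0.0025 and 0.00026), and UQCC1, a factor for cytochrome b, by 0.40 ± 0.13 and 0.64 ± 0.13. PET100, an assembly factor of complex IV, changed by -0.56 ± 0.12 and -0.68 ± 0.12 and fell at both times. LYRM7, a factor for the Rieske protein of complex III, rose at 48 h (0.71 ± 0.16).

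Of 15 genes of the citrate cycle and pyruvate dehydrogenase, 2 fell at 24 h (13.3%, against 10.5% of all genes) and 3 at 48 h (20.0%, against 11.7%), with none higher. OGDH, of the 2-oxoglutarate dehydrogenase complex, changed by -1.39 ± 0.13 and -1.23 ± 0.13 SE. SUCLA2, of succinyl-CoA synthetase, changed by -0.55 ± 0.15 and -0.76 ± 0.15. Both genes fell at both times. Of 15 regulators of mitochondrial biogenesis and transcription, 20.0% were called at 24 h and 13.3% at 48 h (24.2% and 25.8% of all genes). ESRRA fell at both times (-0.81 ± 0.15 and -0.63 ± 0.15), GABPB1, a subunit of GABP, fell at 24 h (-0.50 ± 0.14), TFB1M rose at 24 h (0.63 ± 0.18) and PPRC1 rose at 48 h (0.45 ± 0.12).

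Of 76 mitochondrial ribosomal proteins, 5 rose and 12 fell at 24 h and 5 rose and 11 fell at 48 h, with median log2 changes of -0.19 and -0.11, beside 0.020 and 0.015 over all genes. The shares were 6.58% higher and 15.8% lower at 24 h (13.7% and 10.5% of all genes) and 6.58% and 14.5% at 48 h (14% and 11.7%). MRPL30 (-0.86 and -1.06) and MRPS14 (-0.52 and -1.04) fell at both times, and MRPL1 (0.47 and 0.70) and MRPL45 (0.49 and 0.71) rose at both. Of 22 import genes, 1 rose and 2 fell at 24 h and 3 rose and 2 fell at 48 h (13.6% and 22.7%, against 24.2% and 25.8% of all genes), among them TOMM40L, which fell at both times (-0.72 and -0.83). Of 15 chaperones and proteases, 1 rose and 1 fell at 24 h and 3 rose and 1 fell at 48 h (13.3% and 26.7%), with SPG7 higher at both times (0.47 and 0.40).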

How the data were processed

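RNA of 14 Mel202 samples was labelled and hybridised to Illumina bead arrays, per the labels' protocols. The deposited non-normalised table holds an intensity for each of 47323 probes and, per the file headers, a detection p-value beside each. The authors' processed table, also deposited, has values on a scale close to log2. The submitters' processing notes name lumi, and how that table was background-corrected, transformed and normalised is not given in the sources used here. Here neqc (limma 3.58.1, R 4.3.3, offset 16) turned the intensities into background-corrected, quantile-normalised log2 values. The filter asked for a detection p-value under 0.05 in 3 or more arrays and left 22158 probes (15665 of them with 1 gene symbol), and the brightest probe stood for each of 11679 genes.

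A means model over the 4 groups was fitted to the 10 replicates with lmFit and eBayes (6 residual and 5.16 prior degrees of freedom), with 5 contrasts and Benjamini-Hochberg adjustment over all genes. It was also run on simulated data drawn with independent noise, and that run does not address replicates that may be technical. The number of arrays limits the precision.

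Replicate values are given for up to 5 members called with the smallest p in complexes I, III, IV and V at each time, for the SDH genes, CYC1 and CYCS, for families of isoforms, and for members with probes called in opposite directions. From each other list, up to 4 called genes with the smallest p at each time could be named. Members named outside this rule, and other probes singled out, were chosen after their values were seen. The members and lists were chosen with earlier results of these data known.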

Additional observations from a re-analysis of the deposited data

How the results depend on the processing

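Against 15 members called at 24 h (24.2% of all genes), the count became 26 in the authors' table (26.3% of all genes), 23 at offset 50 (27.3%), 9 with p-values adjusted over all probes (19.7%), 29 with every array as a replicate (33.7%), 23 with the title number as a random block (29.5%), 31 with a model term for the b arrays (39.2%) and 7 with array weights (16.8%). Against 16 at 48 h (25.8%) it was 25 in the authors' table (27.6%) and 25 with every array as a replicate (32.6%). With a model term for the b arrays it was 28 (38.7%). The fits with that term also took every array as a replicate, so the part of the term alone in these counts is not shown. With 75th percentile scaling the members' median log2 change was -0.24 at 24 h and -0.086 at 48 h, their difference had a median of 0.14 and DMSO over time one of -0.22, beside -0.0022, 0.059, 0.046 and -0.056 over all genes. The 24 h median was -0.18 with that term, and the 48 h median was -0.10 in the authors' table.

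Leaving out 1 replicate gave 7 to 12 calls at 24 h (13.0% to 23.0% of all genes), 4 to 16 at 48 h (12.0% to 28.2%) and 24 to 34 in the mean (33.0% to 39.3%), with medians of -0.16 to -0.13, -0.16 to -0.10 and -0.18 to -0.12. The median difference between times ran from -0.0055, reversed, to 0.075, and the DMSO change over time from -0.12 to -0.051, with 0 calls in both. The 24 h count was 8 and 7 without ICG-001 24 h replicate 1 or 3 (17.1% and 17.7% of all genes). It was 9 without ICG-001 48 h replicate 1 or 3 (21.9% and 22.7%). The 48 h count was 7 without ICG-001 48 h replicate 1 or 2 (17.8% and 19.1%). The lowest 48 h counts came without a DMSO replicate of that time, as did the lowest shares of all genes. A group left with 1 sample was assumed to vary like the others.

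Reversed signs occurred among changes that had not passed, except NDUFV3 in the mean. With the mean of a gene's probes, SDHA changed by -0.27 at 24 h and NDUFV3 by 0.17, 0.11 and 0.14 at 24 h, at 48 h and in the mean. At 48 h SDHC was 0.092 without the arrays ending in b, CYCS was -0.014 with 75th percentile scaling and -0.043 without the arrays ending in b, and COX7A2 was 0.018 with that scaling. With 1 replicate left out, SDHA ran from -0.12 to 0.35 at 24 h and from -0.17 to 0.063 in the mean, NDUFA6 from -0.030 to 0.31 at 24 h, NDUFA5 from -0.15 to 0.26, SDHC from -0.11 to 0.063 and CYCS from -0.028 to 0.072 at 48 h. The fitted values of COXFA4L2, whose signals were mostly not above background and give no fold, ran from -0.28 to 0.060 at 24 h and from -0.058 to 0.11 in the mean. The cause was not tested. Over 105 results for named genes and 23 alternatives, 2154 of 2412 values kept direction and side of the threshold, 170 lost a call, 69 gained one and 19 changed sign. ATP5MC3, NDUFV2 and NDUFA7 kept their calls at both times in all 23.

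Adding COXFA4 and COXFA4L2, an alternative chosen after seeing the data, left 15 and 16 calls and gave 35 in the mean. No paired analysis was possible because no title number is shared between groups. A slide block was not run because the files name no slide. Dim probes limit NDUFA5, NDUFC2, NDUFS1 and NDUFV3.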
